A study of Mus musculus with 15 samples.

Results

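CA3 pyramidal neurons are the glutamatergic principal cells of the hippocampal field that lies between the dentate gyrus and CA1. Nuclei of these neurons were picked out of a single-nucleus RNA sequencing (snRNA-seq) series of the dorsal hippocampal formation (dHF) by the counts of a few marker genes. The nuclei were thus chosen by measured values, those of the genes named next, and these are given as a description only. A barcode was kept if it had at least 1000 detected genes, at least 1 molecule (UMI) of Slc17a7, the vesicular glutamate transporter of cortical and hippocampal excitatory neurons, and at least 3 UMIs of Cd109 and Nectin3 together. Barcodes with more than 1 UMI of Gad1 and Gad2, more than 1 of Prox1, more than 2 of Fibcd1 and Mpped1, or with all of Rgs14, Map3k15 and Cacng5 detected were left out, since these genes mark GABAergic neurons, dentate granule cells, CA1 and CA2. This left 4651 of 134019 barcodes, 3.47% of the barcodes and 8.57% of the UMIs of the series.

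CA3 neurons receive the mossy fibres of the dentate granule cells on large proximal spines called thorny excrescences, receive direct entorhinal input on their distal dendrites, and send recurrent collaterals to each other as well as Schaffer collaterals to CA1. The recurrent network is studied for its part in the rapid storage and recall of patterns. Their apical dendrites are also a classical site of structural remodelling after chronic stress or corticosterone in rodents, and the mossy fibre synapse is known for kainate receptors and for a presynaptic form of long-term potentiation.

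The series held 15 female C57BL6/J mice, each giving 1 library from bilateral micropunches enriched for dHF. NP mice (n = 6) were virgin and nulliparous. ControlPP mice (n = 4) had reproductive experience (RE), that is breeding, pregnancy, parturition, lactation and rearing of pups, and StressPP mice (n = 5) had the same experience with limited nesting material and daily separation from the pups in the later part of lactation. The comparison of ControlPP with NP asks what RE left behind in CA3 neurons, and that of StressPP with ControlPP what the stress added. No transgene or drug was given to any of these groups, and the sample labels state neither the age nor the time after weaning. Micropunches also take tissue next to the hippocampus, so thalamic, cortical and white matter nuclei can be present.

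Depth ranged from 40602582 to 96211264 UMIs per library, spread over 5789 to 12738 barcodes. Per the labels the mice fell into 3 batches, and batch 1, with NP mice 27 and 31 and StressPP mouse 70, had no ControlPP mouse. NP mouse 31 stood apart, with 120 CA3 nuclei, the fewest of all mice, and with 0.230% of its CA3 UMIs from mitochondrial genes against 0.0563% to 0.0972% in the other NP mice. StressPP mouse 70 also had a high mitochondrial percentage, at 0.260% against 0.0232% to 0.138% in the other StressPP mice. NP mouse 37 gave 97.1% of the nuclei of 1 sub-cluster, described together with the sub-clusters. Values within batches 2 and 3, or without these mice, are given where a result rests on them. Of 131768 distinct barcode sequences, 2211 occurred in more than 1 library, and 165 CA3 nuclei had a sequence that was also present in another library, but only 3 sequences were CA3 nuclei in 2 or more libraries.

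CA3 nuclei were large libraries of RNA. They had a median of 18596 UMIs, from 1816 to 69259, and a median of 4616 genes. The median was 15501.5 UMIs for nuclei gated as CA1, 23634 for CA2, 10579.5 for dentate granule cells and 2672 for oligodendrocytes, while all barcodes of the series had a median of 5688. The gates held 4482 CA1, 229 CA2, 19004 dentate granule and 28396 oligodendrocyte nuclei. The neuronal gates used the same kind of rule, while the oligodendrocyte gate asked for only 500 genes and for no UMI of Slc17a7. Among barcodes that met the other CA3 criteria, the median rose from 6274 UMIs at a Cd109 and Nectin3 sum of 0 to 16600 at 6. The part of the rules in the median depths of the gates was not tested. Levels below are CPM, the UMIs of a gene as a fraction of all UMIs scaled in the usual way, of the counts summed over the nuclei of a gate in a mouse, averaged over the 15 mice. In such sums fewer nuclei that express a gene and less RNA per nucleus cannot be told apart.

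The marker sum used to choose the nuclei had no gap at its threshold. Among barcodes that met the other criteria, 539 had 3 UMIs of Cd109 and Nectin3 and 989 had 2. Those just inside had 1322 CPM of Grik4, 865 of Trhde and 2165 of Hs3st4, and those just outside had 840, 519 and 1427 CPM. Those outside were shallower, with a median of 11800 against 13440 UMIs. Mbp, a myelin gene, was at 121.5 CPM outside and 86.98 CPM inside.

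The label CA3 was described with markers that the rule did not use, though they were chosen with earlier results of these data known. Grik4, the kainate receptor subunit GluK4, was at 1607 CPM in CA3 nuclei, 1076 in CA2, 80.2 in CA1 and 257 in the dentate gate. Trhde, the ectoenzyme that degrades thyrotropin-releasing hormone, was at 1283, 495, 174 and 98.2 CPM, in the same order. Hs3st4, a heparan sulfate 3-O-sulfotransferase, was at 3215, 2336, 653 and 224 CPM. The chosen genes were at 386 CPM (Nectin3, an adhesion molecule) and 58.1 CPM (Cd109, a surface protein), against at most 63.5 and 8.81 CPM in any other gate. Each of Grik4, Trhde and Hs3st4 was higher in CA3 than in the CA2, CA1 and dentate gates in 15 of 15 mice, while for Nectin3 and Cd109 the rule set this order. As the gates were cut from the same nuclei by marker genes, comparisons between them are descriptions and carry no test. The CA1 and dentate gates also left out barcodes with 3 or more UMIs of Cd109 and Nectin3. The order of the gates is thus no independent check of the name.

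Several markers of neighbouring fields were low but not absent, and others were not low. The CA2 markers Amigo2 and Necab2, a leucine-rich repeat adhesion protein and a calcium-binding protein, were at 3.09 and 7.96 CPM in CA3 against 75.3 and 97.3 in CA2. Of the CA1 markers, the transcription factor gene Pou3f1 was at 1.38 CPM against 66.6 in CA1. Man1a, a Golgi mannosidase listed as a CA1 marker, did not separate the fields as sharply, at 137 CPM in CA3 and 450 in CA1. Ntng2 of the subiculum list was at 98.1 CPM in CA3, 84.6 in the dentate gate and 36.1 in CA1. Ajap1 of the mossy cell list was at 124 CPM in CA3 against at most 97.4 in another neuronal gate. Maml2 of the dentate list was at 197 CPM, with a UMI in 80.2% of CA3 nuclei, against 1341 CPM in the dentate gate. Markers of oligodendrocytes, summed over the 7 genes of that list, ranged from 94.0 to 211 CPM in NP mice, from 111 to 131 in ControlPP mice and from 65.3 to 284 in StressPP mice. The 8 GABAergic markers summed to 48.0 to 210 CPM in NP, 38.1 to 89.1 in ControlPP and 56.0 to 124 in StressPP mice, and the 7 thalamic markers to 125 to 275, 119 to 158 and 99.6 to 210 CPM. The 8 cortical markers summed to 206 to 246 CPM in NP mice and to 173 to 194 in ControlPP mice, without overlap. In StressPP mice they summed to 175 to 213 CPM, which overlapped with both. Tle4, a gene of the cortical list, was alone at 123 CPM and had a UMI in 83.2% of CA3 nuclei. Erbb4, of the GABAergic list, was alone at 87.8 CPM, with a UMI in 44.6% of CA3 nuclei and 2143 CPM in the oligodendrocyte gate. No other GABAergic marker exceeded 2.69 CPM in CA3 nuclei, and the rule limited Gad1 and Gad2. In the NP mice the ranges of the GABAergic, thalamic and cortical sums reached higher than in the ControlPP mice.

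Of 5911 genes at 20 CPM or more in CA3 nuclei, 101 were at least 2-fold higher there than in each of the CA2, CA1 and dentate gates and 21 at least 5-fold. Both counts include Cd109 and Nectin3, at 6.59-fold and 6.08-fold, whose place was set by the rule. The 10 with the highest ratio to the next gate covered several kinds of protein. Mndal and Ifi203, members of the interferon-inducible HIN-200 family, were at 66.5 and 33.8 CPM in CA3 against at most 1.75 and 2.62 CPM in another neuronal gate. These 2 genes overlap on the same strand of chromosome 1, so their counts may be shared. Ttn, which encodes the giant sarcomere protein titin, was at 198 CPM against at most 6.75, and its level in CA3 ranged from 113 to 430 CPM between mice. Slit2, a secreted guidance cue that binds Robo receptors, was at 505 CPM against at most 50.4, and Trps1, a GATA-type zinc finger repressor, at 1896 against at most 180.5. The others of the 10 were Ptpn14, a tyrosine phosphatase, at 42.8 against 2.13 CPM, Rgs12, a regulator of G protein signalling, at 25.6 against 2.68, and the non-coding RNAs 4930467D21Rik, at 36.96 against 1.76, and Gm32647, at 890 against 68.1. Cpm, the gene of carboxypeptidase M, was at 42.0 on the same scale against 4.97, but was higher still in the oligodendrocyte gate, at 129. Each of these 10 genes was higher in CA3 than in the other 3 neuronal gates in at least 14 of 15 mice. Hilar mossy cells had no gate. In sub-cluster 6, described below with mossy cell markers, Trps1 was at 3271 and Ttn at 486.5 CPM, and Slit2 at 60.8 CPM. Gm32647 ran from 610 to 1326 CPM between mice over all CA3 nuclei, and from 358 to 640 CPM in the core nuclei defined below.

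**Figure D1:**
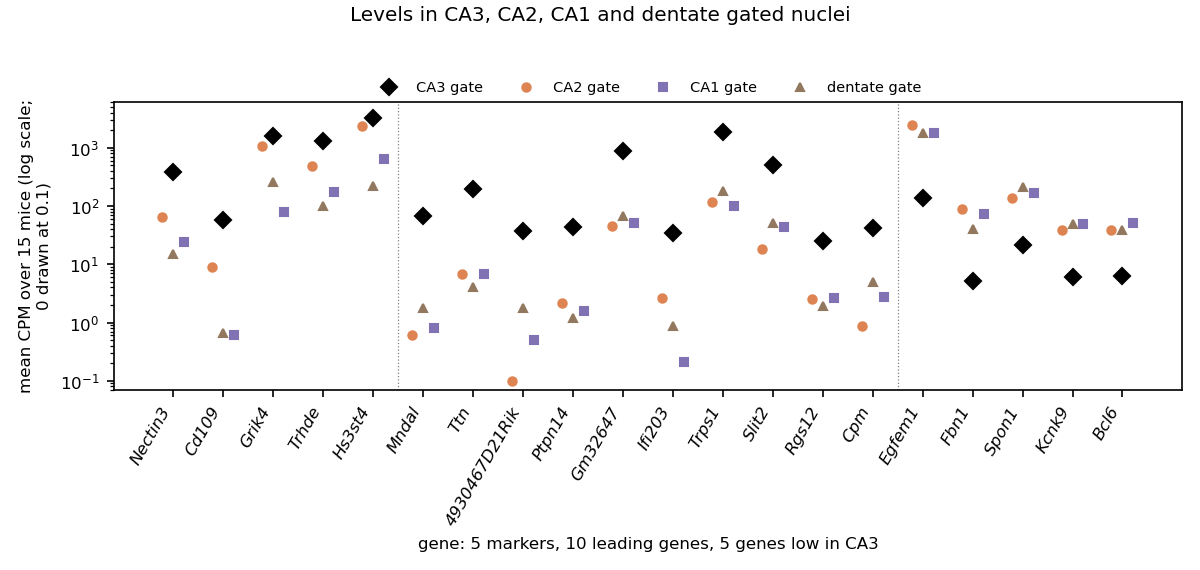
Mean level over 15 mice, in CPM on a log axis, in nuclei gated as CA3, CA2, CA1 and dentate granule cells, for the 5 CA3 markers, the 10 genes with the highest ratio of CA3 to the next gate and 5 genes that were lowest in CA3 (a level of 0 is drawn at 0.1). Mndal stood at 66.5 CPM in CA3 and at no more than 1.75 in the other 3, while Egfem1 stood at 136 CPM in CA3 and at 1757 or more elsewhere.

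Other genes set CA3 apart by their low level, and 58 genes at 20 CPM or more in each of the other 3 neuronal gates were at least 2-fold lower in CA3 than in any of them. Egfem1, an EGF-like and EMI domain gene, was at 136 CPM in CA3 and 1757 to 2497 CPM elsewhere. Fbn1, the microfibril protein fibrillin, was at 5.10 against at least 40.9 CPM, and Spon1, the matrix protein spondin, at 21.4 against at least 138. Kcnk9, a TASK leak potassium channel, was at 6.03 against at least 38.1, and the transcriptional repressors Bcl6 and Bcl11b were at 6.27 and 58.4 against at least 38.8 and 335 CPM. Adcy1, the calcium-stimulated adenylyl cyclase, was at 55.6 against at least 261 CPM. Itga8, the integrin alpha 8 chain, was at 28.6 against at least 149.5 CPM. Itga8 returns below as the gene with the smallest p in the comparison of ControlPP with NP.

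To see which synaptic and hormonal machinery CA3 nuclei carried, 343 genes in 18 lists were read. Of these, 241 were at 10 CPM or more and 34 under 1 CPM. Kainate receptor genes differed in where they were highest. Besides Grik4, the auxiliary subunits Neto1 and Neto2 were highest in CA3, at 587.5 and 122 CPM against at most 235 and 81.5 elsewhere, and Grik5, which forms heteromers with the low-affinity subunits, was at 230 against at most 150 CPM. Grik2, the subunit of the mossy fibre receptor, was at 1604 CPM, higher than in CA1 (861) and lower than in the dentate gate (1914). In contrast, Grik1 was at 22.6 CPM against 93.7 in CA1, and Grik3 at 5.88 against 91.4 in the dentate gate.

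Among adhesion molecules of the mossy fibre synapse, Cdh9, a cadherin of granule cells and CA3 cells, was at 538 CPM in CA3 and 540 in the dentate gate but at 26.5 and 43.4 in CA2 and CA1. Cdh24, another cadherin, was at 49.6 CPM against at most 16.8. Release genes included Rims1, an active zone scaffold, at 2141 CPM in CA3 and 857.5 in CA1, and Syn2, a synapsin that tethers vesicles, at 725 CPM against at most 408 in another gate. Grm7, a presynaptic metabotropic glutamate receptor, was at 3083 CPM against at most 2267. Of the ion channels, Kcnc2, a fast delayed rectifier of the Kv3 family, was at 924 against at most 574 CPM, and Kcnq5, an M-current subunit, at 2519 in CA3 against 195 in the dentate gate. Kcnh7, a potassium channel of the Erg family, was at 81.4 CPM in CA3 against 2602 in CA1. Chrm3, a Gq-coupled muscarinic receptor, was at 1869 CPM in CA3 and 2170 in CA1 against 120 in the dentate gate.

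Genes of the corticosteroid response also differed in where they were highest. Sgk1, a kinase gene induced by corticosteroids, was highest in CA3, at 286 CPM against at most 141. Hsd11b1, the enzyme that regenerates active corticosterone within cells, was at 9.49 against at most 6.27 CPM. Nr3c2, the mineralocorticoid receptor, was at 1129 CPM against 2424 in CA2, and Nr3c1, the glucocorticoid receptor, at 52.8 against 155 in CA1. Fkbp5, a co-chaperone that restrains the glucocorticoid receptor, was at 41.8 CPM against 159 in CA2. Neurotrophin genes were present, with Bdnf at 67.2 CPM, close to the dentate gate (66.5) and above CA1 (33.6), and the BDNF receptor gene Ntrk2 at 487.5 against 681.5 in CA1. Nr4a3, an activity-induced orphan nuclear receptor, was at 106 CPM against at most 37.8.

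Receptors for several hormones and for dopamine were near or below 1 CPM or stayed close to background. Oxtr, the oxytocin receptor, was at 0.704 CPM, Drd1 and Drd5, the D1-type dopamine receptors, at 0.587 and 0.699 CPM, and Tgm2, the transglutaminase that attaches monoamines to histone H3, at 0.893 CPM. Esr1 and Prlr, the oestrogen receptor alpha and the prolactin receptor, were at 1.74 and 3.11 CPM. Drd2, the D2 dopamine receptor, was at 4.12 CPM and had a UMI in 3.72% of CA3 nuclei against 0.831% of oligodendrocyte nuclei, at median depths of 18596 and 2672 UMIs. With every nucleus thinned to 1000 UMIs the Drd2 shares were 0.301% and 0.230%. Drd2 was at 74.0 CPM in a small sub-cluster with mossy cell markers and at 0.709 CPM in all other CA3 nuclei, and in the 6 sub-clusters called the core below it was at 0.206 CPM. Avpr1b, the vasopressin receptor of CA2, was at 0.157 CPM in CA3 against 16.2 in CA2.

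CA3 nuclei were not uniform. Clustering on variable genes, centred within each mouse and without the genes of the rule, gave 16 sub-clusters. A marker counted as detected where it was above a minimum level and at least 2-fold its median over all sub-clusters. Markers present in most sub-clusters were thus not counted, such as Man1a of the CA1 list, with a UMI in 73.96% of CA3 nuclei. Sub-clusters 1 to 5 and 13 held 3658 nuclei (78.7%). They had at most 1 marker detected in this sense from the list of any other cell type (Lamp5 in 2 and 13, Plekha2 and Reln in 4, Prkcd and Trp73 in 5). They are called the core nuclei here, a set that was formed after the sub-clusters had been seen. Prkcd, a gene of the thalamic list, was also among the leading genes of sub-cluster 3, at 79.2 against 46.7 CPM in the remaining nuclei. Scrublet, which marks barcodes that resemble sums of other nuclei, called 7 core nuclei (0.191%) doublets. It called 374 of the other 993 nuclei (37.7%), which made up 21.4% of the members. Sub-clusters 7, 12 and 16 carried markers of oligodendrocytes (160 nuclei), astrocytes (94 nuclei) and microglia (33 nuclei).

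The line between core and other nuclei moved little with the random seed, and the borders between single sub-clusters moved more. When the clustering was repeated with 10 other random seeds, 99.6% to 99.9% of the nuclei kept their place inside or outside the core. These repeats used the same genes, components, neighbours and resolution, so they cover the seed only. The adjusted Rand index, which is 1 for identical partitions, was 0.496 to 0.793, and sub-cluster 5 was not found again with 4 of the 10 seeds, sub-cluster 3 with 1, sub-cluster 13 with 2 and sub-cluster 16, outside the core, with 5. Sub-clusters 1 to 5 are therefore described as ends of gradients. Comparisons between groups use all CA3 nuclei unless the core or a sub-cluster is named.

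Within the core, sub-cluster 1 had 1072 nuclei (23.1% of the members) and was led by Mas1, a G protein-coupled receptor for angiotensin 1-7, at 39.3 CPM against 9.73 in the remaining nuclei, and by Crym, a thyroid hormone binding protein, at 38.5 against 13.2. It also had more Dab1, the adapter of reelin signalling, at 1719 against 816 CPM, more of the transcription factor gene Sox5, at 257 against 118, and little Ttn, at 5.78 CPM against 225.5. Sub-cluster 2, with 909 nuclei, was led by Col12a1, a fibril-associated collagen, at 22 against 3.95 CPM, and by Chst9, a sulfotransferase, at 85.7 against 26.2. Sub-clusters 3 and 5, with 866 and 341 nuclei, shared higher Sema5b, a semaphorin, at 259 and 337 CPM. Ttn ran from 5.78 CPM in sub-cluster 1 to 478 CPM in sub-cluster 5.

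**Figure D2:**
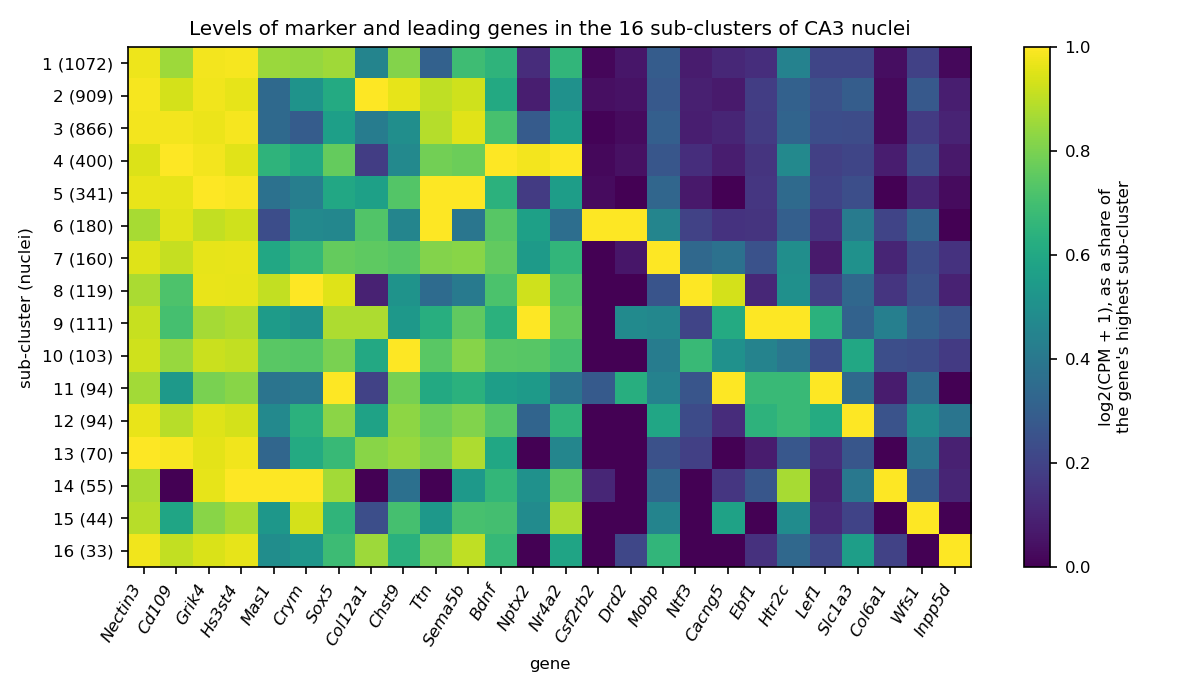
Levels of marker and leading genes in the 16 sub-clusters of CA3 nuclei, as log2(CPM + 1) divided by the gene's highest value among the sub-clusters (rows are sub-clusters with their number of nuclei, columns are genes, and brighter is higher). Among core sub-clusters Ttn was lowest in 1 (5.78 CPM) and highest in 5 (478 CPM), Bdnf peaked in 4 (292 CPM), and Csf2rb2, Mobp, Ntf3, Lef1 and other markers of neighbouring cell types each peaked in a sub-cluster outside the core.

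Sub-cluster 4 (400 nuclei, 8.60% of the members) was led by several genes known to be induced by neuronal activity. Bdnf was at 292 CPM against 44.3 in the remaining nuclei, Nr4a2, an orphan nuclear receptor, at 50.2 against 9.70, and Pcsk1, the prohormone convertase 1 that processes neuropeptide precursors, at 40.5 against 10.1. Sorcs3, a sorting receptor, was at 828 against 154 CPM and the non-coding RNA Mir670hg at 333 against 34.7. The immediate early genes Arc and Fos were at 26.3 and 6.36 CPM there. The share of this sub-cluster was 5.83%, 10.2% and 12.6% (lowest, median and highest) among CA3 nuclei of NP mice, 6.85%, 7.88%, 7.96% and 6.32% in ControlPP mice 66, 72, 87 and 88, and 6.84% to 11.9% in StressPP mice. The groups overlapped, for ControlPP and NP through NP mouse 31 alone, which had the lowest value. ControlPP was 2.34 points below NP on average, at 7.25% and 9.59% (exact permutation p = 0.11, adjusted p = 0.704). The difference was -3.67 and -3.69 points within batches 2 and 3. Leaving out single mice moved it between -3.09 (without NP mouse 31, exact permutation p = 0.0159, unadjusted) and -1.74 points. The unadjusted exact permutation p of these runs reached up to 0.214. With other random seeds of the clustering, 68% to 97.25% of the nuclei of sub-cluster 4 stayed in the matching sub-cluster.

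The cyclic AMP response element (CRE) is the sequence through which CREB binds activity-regulated promoters, and its core was looked up in the promoters of the 10 leading genes of sub-cluster 4, since they were high together. The core searched was TGACG on either strand, read on the other strand as CGTCA, in windows from 250 bases before to 50 bases after each start in the RefSeq annotation of GRCm38.p6, and 9 of the 10 genes had such windows. It occurred in 4 of 19 windows (21.1%), against 20.9% of 32544 windows of all genes, a share near the background. The full element, TGACG followed directly by TCA, occurred in 1 of the 19 (5.26%), that of Pcsk1, against 1.80% of all windows. The other windows with the core were those of Nr4a2, Bdnf and Ankrd33b. The windows of Nr4a2 (minus strand), Pcsk1 and Bdnf (plus strand) are shown 5′ to 3′ with the core in capitals, since these 3 genes are the activity-induced ones among them.
Nr4a2, chr2:57123954-57124253: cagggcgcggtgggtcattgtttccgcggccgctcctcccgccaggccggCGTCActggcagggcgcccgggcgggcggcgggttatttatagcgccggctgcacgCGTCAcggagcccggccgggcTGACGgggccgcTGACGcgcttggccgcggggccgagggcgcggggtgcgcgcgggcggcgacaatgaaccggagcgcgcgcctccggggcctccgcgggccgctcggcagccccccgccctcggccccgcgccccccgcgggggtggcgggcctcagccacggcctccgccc
Pcsk1, chr13:75089607-75089906: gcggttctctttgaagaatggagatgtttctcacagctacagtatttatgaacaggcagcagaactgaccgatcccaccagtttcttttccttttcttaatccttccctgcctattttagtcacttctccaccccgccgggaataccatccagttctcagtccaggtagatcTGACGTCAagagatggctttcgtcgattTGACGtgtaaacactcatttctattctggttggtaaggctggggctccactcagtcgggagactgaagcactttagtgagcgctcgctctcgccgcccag
Bdnf, chr2:109692186-109692485: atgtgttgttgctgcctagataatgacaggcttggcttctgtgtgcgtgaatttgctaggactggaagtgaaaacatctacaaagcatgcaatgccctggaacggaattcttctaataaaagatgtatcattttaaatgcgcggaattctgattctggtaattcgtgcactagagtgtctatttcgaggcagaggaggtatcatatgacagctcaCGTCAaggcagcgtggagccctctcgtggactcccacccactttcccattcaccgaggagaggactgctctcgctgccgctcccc
The Nr4a2 window held the core 4 times and the Pcsk1 window 3 times, and 1.04% of all windows held it 3 or more times. In these counts a full element, as in the Pcsk1 window, holds the core once on each strand, in 1 marked stretch. Which genes led sub-cluster 4 depends on its borders. A match is a string of letters and does not show that the site is bound in these nuclei.

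Most sub-clusters outside the core carried sets of markers of other cells. Sub-cluster 6 (180 nuclei, 3.87%) was mossy cell-like, with the dopamine receptor gene Drd2 at 74.0 CPM against 0.709 in the remaining nuclei, the cytokine receptor gene Csf2rb2 at 199 against 0.203, and Glp1r, the GLP-1 receptor. Mossy cells are the excitatory hilar neurons, and 3.89% of this sub-cluster were marked as doublets. Sub-cluster 8 (119 nuclei, 2.56%) was CA2-like, with 7 of 8 CA2 markers detected, among them Ntf3, neurotrophin 3, at 78.3 against 1.09 CPM, and Acan, aggrecan of perineuronal nets, at 22.96 against 0.996. The rule removed only barcodes with Rgs14, Map3k15 and Cacng5 all detected, so nuclei with fewer of them could stay. Sub-cluster 11 (94 nuclei) carried all 7 thalamic markers, led by Synpo2 at 864 CPM and Lef1 at 644, and sub-cluster 15 (44 nuclei) carried 6 of 7 CA1 markers.

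Sub-clusters 9, 10 and 14 had no name that the markers allowed. Sub-cluster 10 (103 nuclei, 2.21%) carried 8 of 8 dentate granule markers, summing to 1525 CPM, and 5 of 5 markers of oligodendrocyte precursors, summing to 192 CPM, and 55.3% of its nuclei were marked as doublets. It was led by Trpc6, a cation channel of the dentate list, at 171 against 5.34 CPM, and by Pdgfra, the growth factor receptor of the precursors, at 40.3 against 0.723. Sub-cluster 9 (111 nuclei) was led by the non-coding RNA D130079A08Rik at 252.5 CPM against 0.526, with Ebf1, an early B-cell factor family transcription factor, at 593 against 5.13 and Syt6, a synaptotagmin, at 123 against 0.450. It mixed markers, with GABAergic genes summing to 1189 CPM, cortical genes to 820 and thalamic genes to 661. Of the 8 GABAergic markers 3 were detected, Gad2, Erbb4 and Pvalb. Sub-cluster 14 (55 nuclei) was led by Col6a1, a collagen VI chain, at 99.6 CPM against 0.511 and by Gabrg3 and St18, and had no UMI of Cd109 or Ttn. Sub-cluster 13 held 70 nuclei, of which 97.1% came from NP mouse 37, where they made up 32.7% of the CA3 nuclei. In that mouse sub-cluster 2 held 1.92% of the CA3 nuclei, against 16.5% to 25.0% in each other mouse.

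**Figure D3:**
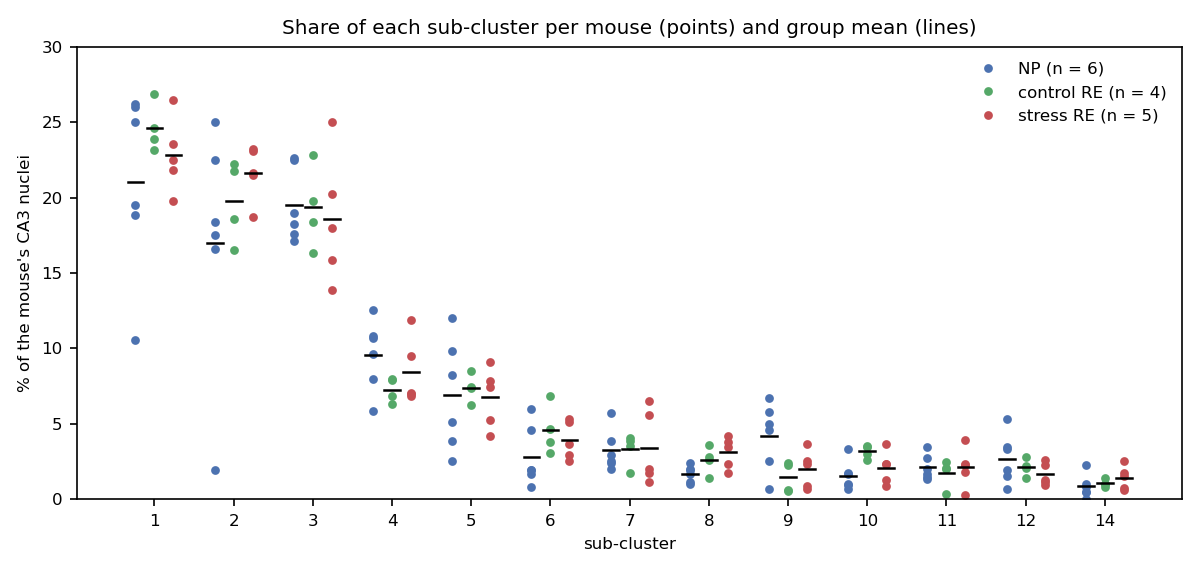
Share of each mouse's CA3 nuclei, in percent, in sub-clusters 1 to 12 and 14 (points are mice, coloured by group, with control RE for ControlPP and stress RE for StressPP, and the line is the group mean). The groups overlapped in sub-cluster 4, and sub-cluster 8 ran from 1.00% to 2.40% in NP and from 1.71% to 4.16% in StressPP mice.

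Shares of the sub-clusters were compared between groups with exact permutation tests over mice, 45 in all. None passed after Benjamini-Hochberg adjustment, where the smallest adjusted p was 0.584. The CA2-like sub-cluster 8 made up 1.00%, 1.79% and 2.40% (lowest, median and highest) of CA3 nuclei in NP mice, 2.79%, 2.63%, 1.38% and 3.57% in ControlPP mice 66, 72, 87 and 88, and 4.16%, 3.49%, 2.34%, 3.79% and 1.71% in StressPP mice 43, 70, 75, 77 and 90. StressPP mice 75 and 90 lay within the NP range and the other StressPP mice above it. The means were 3.10% in StressPP and 1.68% in NP mice, a difference of 1.41 percentage points (two-sided exact permutation p = 0.026, adjusted p = 0.584), with differences of 0.803 and 1.47 points within batches 2 and 3. The smallest p belonged to the unnamed sub-cluster 10, with dentate and precursor markers. It made up 0.656%, 1.32% and 3.33% (lowest, median and highest) in NP mice and 3.55%, 2.63%, 3.46% and 3.02% in ControlPP mice 66, 72, 87 and 88, so that NP mouse 31 overlapped with them. ControlPP exceeded NP by 1.61 points (exact permutation p = 0.0238, adjusted p = 0.584), and by 1.67 and 2.17 points within batches 2 and 3. Sub-cluster 9 ran from 0.656% to 6.73% in NP mice with a median of 4.79%, and was at 2.28%, 0.606%, 2.42% and 0.549% in ControlPP mice 66, 72, 87 and 88 (exact permutation p = 0.0524, adjusted p = 0.704). The core made up 79.7% ± 5.75 of CA3 nuclei in NP mice, 78.4% ± 2.58 in ControlPP and 78.2% ± 4.25 in StressPP mice (SD).

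The share of CA3 nuclei among all barcodes did not separate the groups. It was 1.77%, 2.90% and 4.22% (lowest, median and highest) in NP mice, with 95% Wilson intervals of 1.48% to 2.11% for the lowest, NP mouse 31, and 3.82% to 4.67% for the highest, NP mouse 63. In ControlPP mice 66, 72, 87 and 88 it was 3.87%, 4.66%, 2.50% and 3.46%, and in StressPP mice 43, 70, 75, 77 and 90 it was 5.25%, 2.97%, 3.02%, 4.69% and 3.73%. All 3 groups overlapped, though StressPP mouse 43 was above every other mouse. The means were 2.90% ± 0.87 in NP, 3.62% ± 0.90 in ControlPP and 3.93% ± 1.01 in StressPP mice (SD).

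ControlPP exceeded NP by 0.724 percentage points (exact permutation p = 0.243), StressPP exceeded ControlPP by 0.309 points (p = 0.643 by the same exact test), and StressPP exceeded NP by 1.03 points (exact p = 0.104). Within batches 2 and 3 the last difference was 0.418 and 1.70 points. Without NP mouse 63 it was 1.30 points (exact p = 0.0476, unadjusted). Leaving out single mice moved StressPP minus ControlPP between -0.0666 and 0.657 points and ControlPP minus NP between 0.377 and 1.10 points. The core nuclei alone gave means of 2.32%, 2.82% and 3.08% in NP, ControlPP and StressPP mice. With 18 such tests on per-mouse values, the smallest adjusted p was 0.549. The intervals cover counting error only, and a share depends on how each punch was placed, which was not measured.

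Depth and complexity of the nuclei also overlapped between groups. The median number of UMIs per CA3 nucleus averaged 19539 in NP, 16739 in ControlPP and 20630 in StressPP mice. With each nucleus thinned to 2000 UMIs the median number of genes was 1150 ± 39.0 in NP, 1113 ± 10.1 in ControlPP and 1115 ± 21.5 in StressPP mice (SD), and the exact permutation p of ControlPP against NP was 0.1. The difference was -36.6 genes over all mice, -23.1 without NP mouse 31 (exact p = 0.135) and -45.3 without NP mouse 63 (exact p = 0.0397), and within batches 2 and 3 it was 7.50 and 23.8 genes lower. The highest value, 1217 genes, was that of NP mouse 31.

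**Figure D4:**
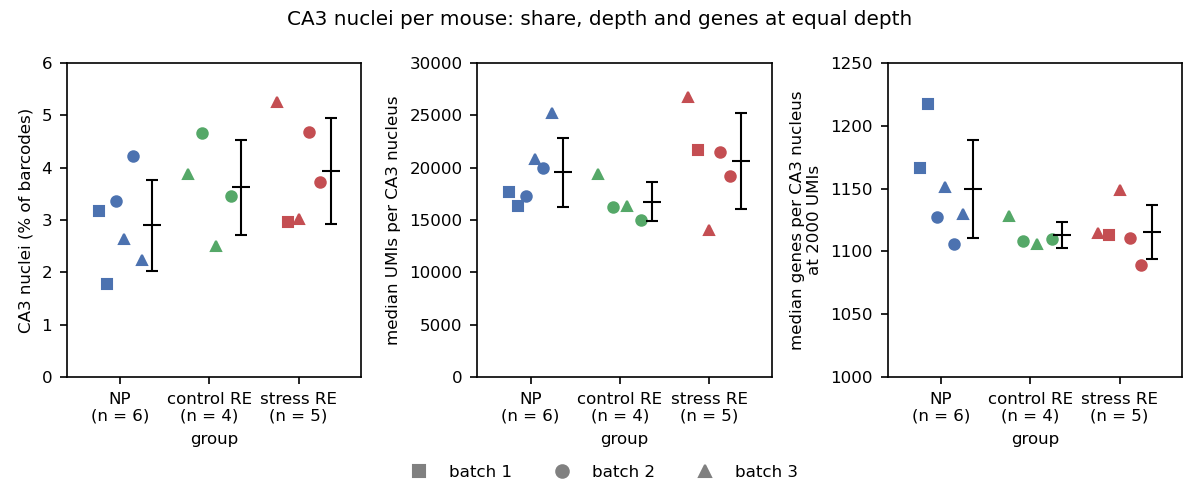
Per-mouse values of CA3 nuclei: their share of all barcodes in percent, the median UMIs per nucleus, and the median genes per nucleus at 2000 UMIs (points are mice, symbols mark the batch, bars are mean ± SD of 6 NP, 4 ControlPP and 5 StressPP mice). The groups overlapped in each panel, and the share ran from 1.77% in NP mouse 31 to 5.25% in StressPP mouse 43.

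Gene expression in CA3 nuclei was compared on UMI counts summed per mouse, with edgeR's quasi-likelihood test over 13951 genes. No gene passed an adjusted p of 0.05 in any of the 3 comparisons (percent called 0.0). At an unadjusted p under 0.05 there were 516 genes (3.7%) for ControlPP against NP, 195 (1.4%) for StressPP against ControlPP and 495 (3.55%) for StressPP against NP. DESeq2 gave 476, 156 and 457 genes at that unadjusted level and called 3, 0 and 0 genes after adjustment. Of the 516 genes, 184 were higher (1.32% of all tested) and 332 lower (2.38%) in ControlPP. For StressPP against ControlPP 118 were higher (0.846%) and 77 lower (0.552%), and for StressPP against NP 208 were higher (1.49%) and 287 lower (2.06%). In the core nuclei alone edgeR again called none of 12829 genes, with 442 (3.45%), 212 (1.65%) and 389 (3.03%) at the unadjusted level. The 3 comparisons share samples, so similar values for ControlPP and StressPP against NP are not independent. In a model with both batch and group, 628 of 13951 genes were called for batch.

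For the 5911 genes at 20 CPM or more, the median standard error of a log2 fold change was 0.121, 0.125 and 0.114 in the 3 comparisons, and 4, 0 and 1 of these genes exceeded a log2 change of 1. Most genes named below had the smallest unadjusted p among genes at 10 CPM or more, and others are members of gene lists or lie under that level. None passed the adjusted threshold in the main edgeR fit on all CA3 nuclei.

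Itga8, the integrin chain that is low in CA3, had the smallest p of ControlPP against NP. It was at 18.4, 22.4 and 28.8 CPM (lowest, median and highest) in NP mice, 39.6, 31.2, 41.2 and 33.6 CPM in ControlPP mice 66, 72, 87 and 88, and 25.5, 29.7, 26.7, 28.5 and 34.1 CPM in StressPP mice 43, 70, 75, 77 and 90. All ControlPP mice were above all NP mice, as for 0.846% of all genes tested in one or the other direction, and StressPP mice lay between and overlapped both. The log2 difference of ControlPP from NP was 0.73 ± 0.14 (SE), with an unadjusted p of 6.43e-05 and an adjusted p of 0.896 by edgeR and an adjusted p of 0.00743 by DESeq2. With batch as a term DESeq2 gave an adjusted p of 0.0641, and on the core nuclei 0.998. It was 0.63 and 0.69 within batches 2 and 3 and 0.46 in the core nuclei. At 1000 UMIs per nucleus 2.73% of CA3 nuclei and 3.49% of oligodendrocyte nuclei had an Itga8 UMI, so at equal depth it was not more frequent in CA3. Among core sub-clusters Itga8 ran from 9.64 CPM in sub-cluster 3 to 40.6 CPM in sub-cluster 1. The part of free RNA in its level was not tested.

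Per2, a repressor of the circadian clock, was lower in both groups with reproductive experience by the values, without passing. It was at 26.8, 33.4 and 37.4 CPM (lowest, median and highest) in NP mice, at 23.7, 25.2, 21.8 and 22.3 CPM in ControlPP mice 66, 72, 87 and 88 and at 24.1, 18.9, 22.2, 23.7 and 23.9 CPM in StressPP mice 43, 70, 75, 77 and 90. Every NP mouse was above every mouse of the other groups, a separation in either direction that 0.846% (ControlPP) and 0.323% (StressPP) of all genes tested had from NP. The log2 differences from NP were -0.44 ± 0.10 for ControlPP and -0.48 ± 0.098 for StressPP mice (SE), with unadjusted edgeR p of 0.000657 and 0.000129 and adjusted p of 0.961 and 1.00. In the core nuclei they were -0.52 and -0.57. The hour at which each mouse was killed is not in the labels, and its part in the level of a clock gene was not tested.

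Ahcyl2, a regulator of inositol trisphosphate receptors and ion transporters, was at 132, 183 and 196 CPM (lowest, median and highest) in NP mice, 242, 216.5, 228 and 252 CPM in ControlPP mice 66, 72, 87 and 88 and 224, 224, 202, 210 and 215 CPM in StressPP mice 43, 70, 75, 77 and 90. NP mice were below both other groups without overlap, as for 0.846% (ControlPP) and 0.323% (StressPP) of all genes tested, and the lowest value was that of NP mouse 31. In the core nuclei StressPP overlapped with NP, with StressPP mouse 75 at 164 and NP mouse 35 at 179 CPM, and the log2 differences from NP were 0.39 for ControlPP and 0.27 for StressPP mice. The log2 differences were 0.47 ± 0.11 for ControlPP and 0.34 ± 0.11 for StressPP against NP (SE). Leaving out single mice moved the first between 0.39 and 0.51. Tafa2, a secreted chemokine-like protein, was at 536 to 662 CPM in NP and 710 to 759 in ControlPP mice, a log2 difference of 0.38 ± 0.095 (SE).

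Inf2, a formin that polymerizes and severs actin, had its lowest values in ControlPP mice. It was at 37.7, 43.3 and 69.0 CPM (lowest, median and highest) in NP mice, 30.5, 33.9, 30.1 and 29.1 CPM in ControlPP mice 66, 72, 87 and 88 and 36.2, 42.7, 39.8, 43.9 and 35.4 CPM in StressPP mice 43, 70, 75, 77 and 90. ControlPP mice were below all NP and all StressPP mice, where 0.846% and 0.738% of all genes tested did not overlap. The log2 difference was -0.55 ± 0.14 for ControlPP against NP and 0.35 ± 0.14 for StressPP against ControlPP (SE), with unadjusted edgeR p of 0.000872 and 0.0241. In the core nuclei the values were -0.60 and 0.38. The 2 highest NP values were those of mice 27 and 31 of batch 1, and within batches 2 and 3 the first difference was -0.38 and -0.43. Slc25a42, a mitochondrial carrier of coenzyme A, had the same order of groups, at 27.04 to 40.8 CPM in NP, 20.4 to 26.7 in ControlPP and 28.0 to 35.9 in StressPP mice.

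Cyp26b1, the hydroxylase that breaks down retinoic acid, had the smallest p of StressPP against ControlPP. It was at 16.4, 18.5 and 28.2 CPM (lowest, median and highest) in NP mice, 12.4, 14.2, 10.3 and 12.0 CPM in ControlPP mice 66, 72, 87 and 88 and 21.4, 20.4, 22.2, 25.7 and 10.6 CPM in StressPP mice 43, 70, 75, 77 and 90. ControlPP mice were below all NP mice, where 0.846% of all genes tested did not overlap in one or the other direction. Of the StressPP mice, 4 of 5 were above all ControlPP mice, while StressPP mouse 90 lay among them. The log2 difference of StressPP from ControlPP was 0.70 ± 0.21 (SE), with an unadjusted p of 0.00381 and an adjusted p of 1.00 by edgeR, and it was 0.93 in the core nuclei. Nptx2, a neuronal pentraxin that clusters AMPA receptors, was at 2.88 to 9.58 CPM in NP, 1.21 to 3.53 in ControlPP and 2.44 to 4.54 in StressPP mice. These values overlapped.

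Some of the smallest p belonged to genes whose difference was smaller in the core. Htr2c, the serotonin 2C receptor, was at 20.9, 50.1 and 67.1 CPM (lowest, median and highest) in NP mice, 20.5, 11.0, 24.6 and 15.7 CPM in ControlPP mice 66, 72, 87 and 88 and 17.9, 25.1, 32.4, 23.1 and 21.4 CPM in StressPP mice 43, 70, 75, 77 and 90. The log2 difference of ControlPP from NP was -1.34 ± 0.30 (SE) over all CA3 nuclei, with an adjusted p of 0.961 by edgeR and 0.0459 by DESeq2, or 0.0241 by DESeq2 with batch as a term. It was -0.25 in the core, where edgeR gave an unadjusted p of 0.445. In NP core nuclei Htr2c ran from 9.71 to 14.8 CPM. D130079A08Rik, the leading gene of sub-cluster 9, was at 0.917, 14.0 and 44.0 CPM (lowest, median and highest) in NP mice and at 0.112 to 0.404 CPM in ControlPP mice, and DESeq2 gave it an adjusted p of 0.0384, or 0.183 with batch as a term. Dach1, a transcriptional cofactor, was at 6.42 to 45.9 CPM in NP mice and 3.03 to 6.87 in ControlPP mice, with a log2 difference of -2.17 over all and -0.77 in core nuclei. Dach1 and D130079A08Rik were leading genes of sub-cluster 9, whose share had a median of 4.79% in NP and 1.45% in ControlPP mice and did not pass the test given above. Its part in these differences was not tested.

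Hs6st2, a heparan sulfate 6-O-sulfotransferase, was at 17.97 to 35.6 CPM in NP, 13.0 to 17.1 in ControlPP and 10.5 to 21.4 in StressPP mice. The log2 differences from NP were -0.77 ± 0.20 for ControlPP and -0.82 ± 0.18 for StressPP mice (SE), and -0.28 and -0.61 in the core.

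Among the other genes with small p, Gabbr1, a subunit of the GABA-B receptor, was at 115 to 165 CPM in NP and 87.65 to 115 in ControlPP mice. Dab1 was at 705 to 1009 CPM in NP, 1057 to 1217 in ControlPP and 956 to 1180 in StressPP mice. Syt1, the calcium sensor of vesicle release, was at 3262 to 4305 CPM in NP and 4500 to 4668 in ControlPP mice. ControlPP did not overlap with NP for any of these 3, as for 0.846% of all genes tested, and their log2 differences were -0.33, 0.40 and 0.28. In the core nuclei the differences were -0.25, 0.33 and 0.27, and the groups overlapped for Gabbr1 and Dab1. Crym, a leading gene of sub-cluster 1 like Dab1, was at 12.6 to 21.6 CPM in NP and 18.02 to 24.02 in StressPP mice. Cfap299, a cilia-associated gene, was at 7.88 to 13.5 CPM in NP and 12.6 to 18.4 in ControlPP mice, with a log2 difference of 0.59 over all nuclei and 0.86 in the core. For the core edgeR gave an unadjusted p of 1.6e-05 and an adjusted p of 0.205, and DESeq2 an adjusted p of 0.0441.

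Other named genes of StressPP against ControlPP follow. Lpl, lipoprotein lipase, was at 17.97 to 25.1 CPM in ControlPP and 23.3 to 33.8 in StressPP mice. Crlf3, a cytokine receptor-like factor, was at 21.6 to 23.4 CPM in ControlPP and 17.1 to 20.3 in StressPP mice, without overlap, as for 0.738% of all genes tested. Rheb, the GTPase that activates mTORC1, was at 33.9 to 45.9 and 40.1 to 55.5 CPM. Cend1, which is linked to the exit of neuronal precursors from the cell cycle, was at 6.07 to 16.9 and 8.67 to 26.5 CPM.

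For StressPP against NP the genes with the smallest p included Per2 and Hs6st2, given above. Stxbp5l, tomosyn-2, an inhibitor of vesicle release, was at 518 to 893 CPM in NP and 792 to 1082 in StressPP mice. Dnah9, an axonemal dynein chain, was at 53.4 to 72.8 and 75.9 to 89.0 CPM, without overlap, as for 0.323% of all genes tested in either direction.

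None of the 306 list genes that were tested passed in any comparison. At an unadjusted p under 0.05 there were 25 (8.17%) for ControlPP against NP, 4 (1.31%) for StressPP against ControlPP and 26 (8.5%) for StressPP against NP, beside 3.7%, 1.4% and 3.55% of all genes. In the core nuclei 18, 5 and 14 list genes were at that level, beside 3.45%, 1.65% and 3.03% of all genes. Of the 343 genes of the lists, 241 were at 10 CPM or more in CA3 nuclei and 34 under 1 CPM. Expression level was not matched in these shares, and its part in them was not tested. The counts per list below are over all CA3 nuclei unless the core is named. For ControlPP against NP the genes at that level were 4 of 27 vesicle release genes (Syt1 higher, Slc17a6, Sv2a and Cplx1 lower), 4 of 31 synaptic adhesion genes (Cntnap4, Slitrk5, Adgrl1 and Nlgn2, all lower), 3 of 31 voltage-gated potassium channels and 2 of 26 sodium, calcium and other voltage-gated channels. They were 1 of 7 kainate receptor and Neto genes (Neto1), 1 of 14 AMPA receptor genes, 1 of 6 NMDA receptor genes, 0 of 6 metabotropic glutamate receptors, 1 of 14 GABA receptor genes (Gabbr1) and 1 of 16 mossy fibre synapse genes (Gpc4). Among receptors for other messengers they were 2 of 18 hormone and neuropeptide receptors (Npy1r among them) and 3 of 19 monoamine and acetylcholine receptors (Htr2c, Chrm2 and Adra1a). In the core nuclei 0 genes were at that level in the AMPA, NMDA, monoamine and acetylcholine receptor and mossy fibre synapse lists. The core counts were 1 for hormone, kainate and GABA receptors each, 2 for sodium and calcium channels, 3 for potassium channels, 3 for vesicle release and 5 for adhesion. Slc17a6 was at 110 and 147 CPM in sub-clusters 9 and 11, and at most 4.25 CPM in a core sub-cluster.

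Of 14 corticosteroid receptors and responsive genes tested, 0 were at an unadjusted p under 0.05 in edgeR for ControlPP against NP or StressPP against ControlPP, and 1, Per1, for StressPP against NP, beside 3.7%, 1.4% and 3.55% of all genes. Per1, a clock gene with a glucocorticoid response element, was at 11.5 to 14.8 CPM in NP mice other than mouse 31, which had 27.4 CPM, and at 9.48 to 12.7 in StressPP mice. Of 15 enzymes of histone dopaminylation and H3K4 methylation, 0 were at that level in any comparison, with list medians of -0.003, 0.0016 and -0.0271 log2 beside -0.0084, -0.0044 and -0.0049 for all genes. Of 17 immediate early genes, 1 (Nptx2), 0 and 0 were at that level, and of 9 neurotrophin and receptor genes 1 (Ntf3, a marker of CA2), 0 and 1. Bdnf was at 46.6 to 87.4 CPM in NP, 53.1 to 68.2 in ControlPP and 51.2 to 83.8 in StressPP mice.

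Oxidative phosphorylation genes had the list medians farthest from 0 of all lists in each comparison. Their median log2 differences were -0.27 for ControlPP against NP, 0.45 for StressPP against ControlPP and 0.32 for StressPP against NP, yet 0 of 22 were at an unadjusted p under 0.05 by edgeR in any comparison. The mitochondrially encoded mt-Co3 ran from 37.7 to 559 CPM across the 15 mice. Both NP mouse 31, at 470 CPM, and StressPP mouse 70, at 559 CPM, had the highest mt-Co3 level of their group, 11 of the 22 genes are encoded by the mitochondrial genome, and the part of these mice in the list medians was not tested. The 14 perineuronal net and matrix genes had medians of -0.26, -0.01 and -0.03, with 0, 0 and 2 at that level.

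The call of a difference between the CA3 and CA1 effects depended on the filter for low counts. In a model of both gates with the mouse as a block, 0 of 14712 genes passed for the difference between the CA3 and CA1 effects in any comparison, with 475 (3.23%), 349 (2.37%) and 613 (4.17%) at an unadjusted p under 0.05 by edgeR. Without that filter 26 of 26696 genes passed for ControlPP against NP and 34 for StressPP against NP. Per2 differed in CA3 from NP by much the same amount as in CA1, with a difference between the fields of -0.04 for ControlPP and 0.03 for StressPP mice on the log2 scale. Itga8 had a difference between the fields of 0.64 for ControlPP against NP, with an unadjusted p of 0.00235 and an adjusted p of 1.00 by edgeR. Within sub-cluster 1, sub-clusters 2 and 13 together, and sub-cluster 3, edgeR called 0 of 10049, 9795 and 9259 genes in each comparison. At an unadjusted p under 0.05 there were 198 to 508 genes in sub-cluster 1, 224 to 364 in sub-clusters 2 and 13, and 201 to 293 in sub-cluster 3. DESeq2 was not run on these fits.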

How the data were processed

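Single-nucleus RNA-seq (10x Genomics 3′ chemistry) was done by the authors on dHF micropunches of 15 mice, with 1 library per mouse. The deposited values were raw UMI counts per gene and barcode in filtered matrices of 32285 genes, which the authors made with Cell Ranger on mm10. The submitters' processing notes give version 7.1.0 and also name GRCm39 and Seurat, while the file headers give 7.0.0 and mm10. The ambient RNA and doublet removal described in the study's methods are not part of these counts, so free RNA and doublets remain in them.

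The CA3 nuclei were selected on the marker counts given in the report. The members and the gene lists were chosen with earlier results of these data known. UMIs were summed per mouse and tested with edgeR 4.0.16 (TMM, quasi-likelihood, all 3 groups in 1 fit, R 4.3.3), with p adjusted by Benjamini-Hochberg over all genes tested and a threshold of 0.05. DESeq2 1.42.0 was an alternative. The comparison with CA1 was an interaction term with the mouse as a block. Each mouse is a separate animal, so p-values measure the spread between animals. For shares and other per-mouse values, mice were permuted exactly (two-sided). For share intervals the 95% Wilson method was used, which covers counting error only.

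Sub-clusters came from Leiden clustering (leidenalg 0.10.2, scanpy 1.11.5, scikit-learn 1.9.0) of 991 variable genes, with 20 principal components, 15 neighbours and a resolution of 0.5. A first clustering in single precision changed with the number of processor threads and was discarded. The one reported uses double precision. The change moved borders within the core and also values outside it, among them the share test of the CA2-like sub-cluster. Scrublet marked the highest scores, 0.8% per 1000 barcodes of a library. Sub-clusters were named only from marker lists.

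Genes named are those with the smallest p per comparison at 10 CPM or more (10 per comparison where fewer passed), per list the member with the smallest p and the one with the highest level, the CA3 markers, the 10 genes with the highest ratio to the other gates at 20 CPM or more, and genes set by name for hormone, dopamine, neurotrophin and kainate receptors. Genes with low levels in CA3, leading genes of sub-clusters, list members at an unadjusted p under 0.05 and some further genes with small p were named after their values had been seen. The test scripts were tested on simulated data. A few genes that these rules name are not reported here.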

Additional observations from a re-analysis of the deposited data

Results flagged for a closer look

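In each group of 4 to 6 mice, the highest and lowest value was compared with its nearest neighbour by Dixon's criterion at 95%, which flags about 1 in 20 groups by chance. Of 291 group values looked at, 26 stood apart, 10 of them from NP mouse 31, 5 from StressPP mouse 70 and 11 from other mice. Both mice belong to batch 1 and had the highest mitochondrial percentages of CA3 UMIs in their groups. The part of these in the other values was not tested.

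NP mouse 31 had 0.230% mitochondrial UMIs, with mt-Co1 at 246.5 and mt-Co3 at 470 CPM. It was also high for Per1, a clock gene, at 27.4 CPM and for Kmt2a, an H3K4 methyltransferase, at 489 CPM. It was low for the marker Trhde at 786 CPM, for Trps1 at 1003 CPM, for Ahcyl2 at 132 CPM, for Grm7 at 2162 CPM and for the synaptic adhesion gene Nrxn3 at 6950 CPM. StressPP mouse 70 was high for Ttn at 342 CPM, for Rgs12 at 33.4 CPM and for Grik1 at 26.1 CPM. It was low for Trps1 at 1426 CPM and for Grik2 at 1363 CPM.

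NP mouse 37 had 1.92% of its CA3 nuclei in sub-cluster 2, against 16.6% to 25.0% in the other NP mice, and was the source of nearly all nuclei of sub-cluster 13.

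Among other mice, Nrxn3 was low at 9686 CPM and Slc25a42 high at 35.9 CPM in StressPP mouse 75, and Cpm, the carboxypeptidase gene, was high at 68.1 in StressPP mouse 77. ControlPP mouse 66 was high for Crym at 23.8 CPM and mt-Co3 at 214 CPM and low for Zfp536, a zinc finger gene, at 18.9 CPM. ControlPP mouse 72 was high for Mndal at 89.1 CPM and for Gm6209, an unnamed transcript, at 14.2 CPM, and low for Cntnap4, an adhesion gene, at 24.5 CPM. ControlPP mouse 87 was low for Nectin3, a gene of the rule, at 346 CPM.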

How the results depend on the processing

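No paired analysis was possible because each mouse was in 1 group, and replicate numbers were given in accession order and pair no animals. No gene passed in edgeR for any of the 3 comparisons under other size factors, count filters, batch terms, equal numbers of nuclei (120 per mouse), a marker sum of 5 UMIs, or without any 1 mouse (0 to 0 genes, also for the comparison with CA1). Of ControlPP against NP, DESeq2 called 3 genes (Itga8 higher, Htr2c and D130079A08Rik lower) and DESeq2 with batch called 1 (Htr2c, log2 difference -1.41, adjusted p = 0.0241 by DESeq2). DESeq2 on the core called 1 (Cfap299), and edgeR without Scrublet doublets and barcodes over 5% mitochondrial UMIs called 1 (Zfp536, log2 difference -1.56, adjusted p = 0.0477 by edgeR). Zfp536 was at 28.5 CPM in CA3 and 1869 CPM in oligodendrocyte nuclei, and at 1000 UMIs per nucleus 2.69% and 81.5% of them had a UMI (median depths of 18596 and 2672 UMIs). Without a low-count filter, 26 and 34 of 26696 genes passed for the difference between CA3 and CA1 in ControlPP and StressPP against NP. The cause was not tested. The fits on the core and with DESeq2 and batch were chosen after seeing the data.

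Of 7518 values of 273 pairs of a named gene and a comparison, 7432 stayed on the same side of the threshold and moved by less than the spread between replicates, some of them with a change of sign, 80 moved by more (19 on the core) and 6 passed where they had not. As no named gene passed in edgeR with all nuclei, no loss of a call could occur. Signs turned within batches for median UMIs of StressPP against NP (-2599 in batch 3), for the mitochondrial percentage of StressPP against ControlPP (-0.00088 in batch 2) and against NP (-0.00242 in batch 2), and for genes at 2000 UMIs of StressPP against ControlPP (-9 in batch 2). The CA3 share of barcodes with 1000 genes and Slc17a7 differed by 1.09 points for ControlPP and 1.84 for StressPP against NP, but by -1.26 and -0.278 within batch 2, and the share of gated excitatory nuclei by 1.58 and 2.41, but by -2.56 and -1.90 within batch 2.

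Without single mice, the CA3 share differed by 0.377 to 1.10 percentage points for ControlPP against NP, -0.0666 to 0.657 for StressPP against ControlPP and 0.703 to 1.30 for StressPP against NP. Genes at 2000 UMIs differed by -45.3 to -23.1, -6 to 9 and -42.9 to -20.7, median UMIs by -3671 to -1661, 2356 to 5529 and -443 to 2730, and the mitochondrial percentage by -0.0485 to -0.00843, 0.0196 to 0.0788 and -0.0147 to 0.046. Without NP mouse 63 the exact permutation p fell under 0.05 for the share of StressPP against NP (0.0476) and for genes at 2000 UMIs of ControlPP (0.0397) and StressPP (0.0476) against NP. Over 10 other seeds, the sub-clusters numbered 15 or 16 and 73.4% to 90.9% of nuclei fell in the matching one.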
